A study of Drosophila melanogaster with 72 samples.

Results

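The 100 genes described here lie on chromosome 4 of *Drosophila melanogaster* and were measured in nuclear RNA of outer photoreceptors in which the H3K4 methyltransferase Set1, Trr or Trx was targeted by RNAi. They are the genes with a FlyBase identifier on chromosome 4 whose level was no lower than 1 CPM (count per 1e6 counts of the library) in each replicate of some combination of genotype and time point. Genes whose symbols begin with Rp, ATPsyn or MED were left out. The chromosome held 114 such identifiers in the count tables. Of these, 11 stayed under the filter and 3 were left out by symbol. The 100 members were tested among 14767 features, of which 12060 were genes and the others mostly copies of transposable elements. By annotation 76 members code for protein, 19 are long or antisense noncoding RNAs, 4 are pseudogenes and 1 is a small nucleolar RNA.

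Chromosome 4 is the small dot chromosome of the fly. Its genes are interspersed with transposable elements in chromatin that carries heterochromatin marks, among them HP1a and H3K9 methylation deposited by the methyltransferase egg (SETDB1), yet many of the genes are expressed. The protein encoded by Pof binds the chromosome along the bodies of its active genes. The chromosome carries regulators of eye development, with both fly Pax6 genes (ey and toy) and the Pax2 homolog sv, and several genes of the synapse, such as the vesicle priming factor unc-13. Set1, Trr and Trx are the catalytic subunits of the fly COMPASS-type complexes that methylate histone H3 at lysine 4.

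Males carried Rh1-Gal4, which is active in the outer photoreceptors R1 to R6, with UAS-GFP-KASH to tag their nuclear envelope. They also carried 1 of 4 UAS short hairpins, against Set1 (TRiP.HMS01837), Trr (TRiP.HMS01019), Trx (TRiP.HMS00580) or, as the control, mCherry. The control flies thus carried the driver, the tag and a hairpin with no fly target. Each knockdown rests on 1 hairpin line. Flies were kept at 25 °C in a cycle of 12 h light and 12 h dark to day 10 after eclosion, and nuclei from 400 flies per sample were purified through the GFP tag. Samples were taken at zeitgeber times (ZT, hours after lights on) 0, 4, 8, 12, 16 and 20 with 3 replicates each, which gave 72 libraries. The library of Set1 RNAi at ZT20 replicate 1 was dropped, following the methods of the study. This left 17 Set1 RNAi libraries and 18 of each other genotype.

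Library totals, in units of 1e6 counts, were 8.424 to 13.38 with Set1 RNAi, 10.16 to 24.53 with Trr RNAi, 12.33 to 24.59 with Trx RNAi and 8.522 to 21.48 in the control. The series' own design text names the same sequencer for the Trr and Trx RNAi libraries and another for the Set1 RNAi and control libraries. The methods of the study name a single instrument for all RNA-seq, and which of the sources is right was not settled here. If the design text is right, an effect of Trr or Trx RNAi against the control and an effect of the sequencer cannot be told apart. The targeted transcript itself was not lower in the libraries labelled Set1 RNAi (median 246.9 CPM, against 263.7 CPM in the control, adjusted p = 0.75 in edgeR's quasi-likelihood test), whereas trr had a log2 fold change of -0.94 with Trr RNAi but also of -0.86 with Trx RNAi, and trx one of -0.17 with Trx RNAi. The Set1 transcript was lower with Trr RNAi (-0.39) and with Trx RNAi (-0.50), and trr was higher with Set1 RNAi (0.47). The labelled cell type was checked with 15 outer photoreceptor markers. Their summed level had a median of 75290 CPM with Set1 RNAi, 19290 CPM with Trr RNAi and 19700 CPM with Trx RNAi, against 90220 CPM in the control. At least 2-fold lower were 15 of the 15 markers under Trr RNAi and 14 under Trx RNAi, and none with Set1 RNAi. Over 8 muscle markers the median log2 fold change was 3.71 under Trr RNAi and 3.95 under Trx RNAi, against 0.07 with Set1 RNAi. Of these 8, 6 were higher and 2 lower with either of Trr and Trx RNAi, and the summed level of all 8, of which Tm1 and flw are the most abundant in the control, had a median of 1801 CPM with Set1 RNAi, 1259 CPM with Trr RNAi and 1300 CPM with Trx RNAi, against 2104 CPM in the control. Over the 5 fat body markers tested the median log2 fold change was 2.24 under Trr RNAi and 2.23 under Trx RNAi, against 0.14 with Set1 RNAi. All 4 inner photoreceptor and 4 hemocyte markers were at least 2-fold higher with Trr and Trx RNAi, and none with Set1 RNAi. The summed level of 8 glia markers had a median of 905.9 CPM with Set1 RNAi (309.7 to 2343), against 344.9 CPM in the control (236.8 to 1371). Of these 8, 1 was at least 2-fold higher with Set1 RNAi, and their median log2 fold change was 0.10. Eaat1 had medians of 634.6 CPM with Set1 RNAi and 88.74 CPM in the control. In these bulk samples fewer nuclei of a type and less RNA per nucleus cannot be told apart. The methods call the replicates biological. Whether they came from separate cohorts or rearings is not stated in the sources used here, and the p-values measure the spread between these samples.

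Single libraries that stood apart touch the chromosome 4 values. The share of gene counts that fell on the members was 4.807% in the control library of ZT20 replicate 3, against 2.248% to 3.536% in the other 17 control libraries. The control library of ZT12 replicate 1, the smallest of its genotype, held the lowest control value of 33 members and the highest of 11. The Trx RNAi library of ZT12 replicate 1 had the lowest share of its genotype, 3.205%. The control library of ZT20 replicate 3 also held the highest control value of 68 members. Among the Trr RNAi libraries, ZT0 replicate 1 held the highest value of 70 members and ZT8 replicate 1 the lowest of 69. Some counts without the control libraries or the Trx RNAi library named here are given below. The Trr RNAi libraries were not left out by themselves. Amplitudes and rhythm tests of single members include all of these libraries unless stated.

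The genes of chromosome 4 were expressed at high levels in photoreceptor nuclei. Per kb of exon, the members had a median level of 31.53 CPM in the control (lower quartile 7.551, upper quartile 78.19), whereas the 11932 genes of the other chromosome arms had a median of 5.903 CPM per kb (1.893 to 17.08). A control mean above 100 CPM was reached by 44 of the 100 members and by 1600 of the 11932 other genes. At the other end, 7 members and 1498 of the other genes stayed below 1 CPM. The filter that chose the members was the same for both sets. The highest level per kb belonged to CaMKI, a calcium and calmodulin dependent kinase, at 479.1 CPM per kb in the control. It was followed by unc-13 at 392.4, by Cadps, which primes dense core vesicles, at 362.6, by CaMKII, a kinase of synaptic plasticity, at 242.4, by the homeodomain factor onecut at 220.4 and by the antisense RNA asRNA:CR44029 at 200.6 CPM per kb. This last lies within unc-13, and since the counts carry no strand its reads and those of unspliced unc-13 RNA cannot be told apart.

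A few members made up much of the chromosome's RNA. The members took a median of 2.47% of all gene counts with Set1 RNAi (1.852% to 2.815%), 4.271% with Trr RNAi (3.212% to 5.167%) and 4.302% with Trx RNAi (3.205% to 4.731%), against 2.782% in the control (2.248% to 4.807%). The ranges of all 3 knockdowns overlapped that of the control. Without unc-13 and apolpp, a lipoprotein of the fat body and glia, the medians were 1.786% under Set1 RNAi, 2.593% under Trr RNAi and 2.624% under Trx RNAi, against 2.012% in the control.

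**Figure D1:**
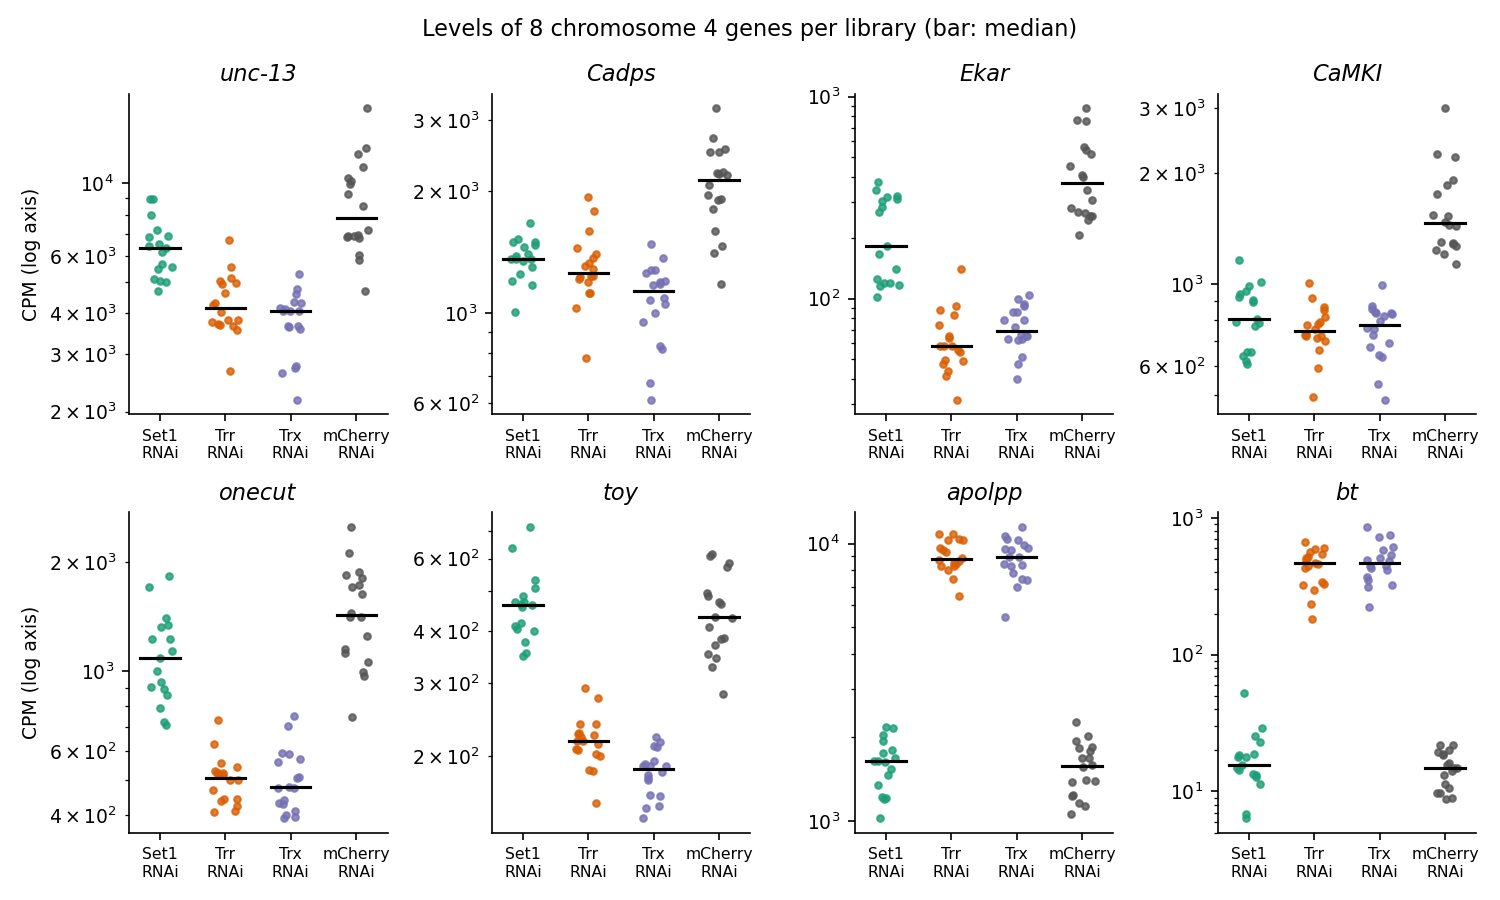
Level of 8 members in every library, in CPM on a log axis, with 1 point per library, a bar at the median, and the genotypes Set1 RNAi, Trr RNAi, Trx RNAi and control from left to right. Ekar and CaMKI are lower with all 3 knockdowns, while apolpp and bt stand above every control library with Trr and Trx RNAi only.

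The first comparison asked which members differed between Set1 RNAi and the control in the mean over the day. Most changes were small decreases, among them those of 8 of 10 genes of the synapse. Lower levels were called for 43 of the 100 members and higher levels for 11 (adjusted p under 0.01 over all features in edgeR's quasi-likelihood test, with no minimum change). Over all features the same rule called 13.6% lower and 18.0% higher. On each of the other 5 arms 12.0% to 13.9% of the genes were called lower. The median log2 fold change of the members was -0.16, beside 0.01 over all features and -0.01 to 0.02 on the other arms. Among protein-coding genes alone, 35 of the 76 members were lower and 8 higher, with a median of -0.22, beside -0.01 over protein-coding genes of the other arms.

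At least 2-fold changes were few. They were higher levels in 7 members and lower levels in 5, while 7.26% of all features were higher and 1.66% lower by that rule. In addition to the genes named below, the antisense and long noncoding RNAs asRNA:CR45198, lncRNA:CR45200 and lncRNA:sphinx and the gene CG32006 were higher, and lncRNA:CR43956, asRNA:CR44030 and snoRNA:CD-24 were lower. These 7 were named after their values were seen, and all had medians under 10 CPM in both genotypes. The highest control value was 0.9043 CPM for CG32006 and 0.8646 CPM for lncRNA:sphinx. Both thus passed the filter of 1 CPM only through knockdown groups, and their higher levels are in part given by the filter. Without regard to a test, 40 members had a lower mean with Set1 RNAi at all 6 time points, beside 11.6% of all features.

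Of the 10 members on the synapse list, 8 fell and none rose with Set1 RNAi, with a median log2 fold change of -0.39. The lists were not compared by a test. The 15 outer photoreceptor markers had a median log2 fold change of -0.34, and their part in these values was not tested. Ekar, the kainate type glutamate receptor of photoreceptors (chr4:636131-646556, minus strand, BDGP6.46), had 102.3, 182.5 and 376.8 CPM with Set1 RNAi as lowest, median and highest value, against 207.5, 371.6 and 877.7 CPM in the control. The groups overlapped at the lower control libraries, and the log2 fold change was -0.95 (SE 0.09, adjusted p = 7.8e-14 in edgeR's quasi-likelihood test). Cadps (chr4:1230837-1271759, plus strand) had 1006, 1365 and 1674 CPM with Set1 RNAi, against 1182, 2131 and 3206 CPM in the control, with a log2 fold change of -0.58 (SE 0.08, adjusted p = 7.9e-09). The member with the most RNA, unc-13 (chr4:867824-912331, minus strand), had 4693, 6333 and 8958 CPM with Set1 RNAi, against 4680, 7837 and 16980 CPM in the control. Its groups overlapped widely, with a log2 fold change of -0.41 (SE 0.08, adjusted p = 2.6e-05). Its adjusted p was 0.027 without replicate 3, and 28.4% of its exon bases are shared with another annotated gene.

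The other 5 synaptic genes that fell had smaller differences. The ankyrin gene Ank had a log2 fold change of -0.43, the cell surface immunoglobulin dpr7 -0.45, the synaptotagmin Syt7 -0.36, the calsyntenin Cals -0.37 and the plasma membrane calcium pump PMCA -0.27. The GABA transporter Gat (0.17, adjusted p = 0.051 in edgeR's quasi-likelihood test) and the metabotropic glutamate receptor mGluR (0.32, adjusted p = 0.011) were not called.

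Signalling genes fell in 7 of 15 cases and rose in 1. CaMKI (chr4:445504-453947, plus strand) had 609.3, 806.2 and 1164 CPM with Set1 RNAi, against 1132, 1464 and 3000 CPM in the control. Only the highest Set1 RNAi library reached into the control range, and the log2 fold change was -0.93 (SE 0.07, adjusted p = 7.8e-18 in edgeR's quasi-likelihood test). The activin ligand Actbeta (-0.52), the phosphoinositide kinase PIP4K (-0.44) and the semaphorin receptor PlexB (-0.33) fell by less. RhoGAP102A, a GTPase activating protein (chr4:254997-265574, plus strand), rose. It had 32.91, 57.17 and 83.16 CPM with Set1 RNAi, against 13.9, 24.3 and 53.16 CPM in the control, with overlapping groups and a log2 fold change of 1.09 (SE 0.12, adjusted p = 1.6e-11). That change was under 2-fold without replicate 2 (0.89) and without ZT8 (0.94).

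Transcription and RNA regulators fell in 9 of 19 cases and rose in 2. Falls came to -0.46 for Mitf, the regulator of lysosome genes, to -0.39 for onecut, to -0.32 for the host cell factor Hcf and for Pur-alpha, and to -0.26 for gw, the GW182 protein of microRNA silencing. The Ski family gene fuss (chr4:962341-978489, minus strand) rose. It had 10.44, 12.75 and 18.18 CPM with Set1 RNAi, against 0, 5.549 and 9.94 CPM in the control, so the groups did not overlap, and the log2 fold change was 1.11 (SE 0.12, adjusted p = 2.8e-11 in edgeR's quasi-likelihood test). The value of 0 came from the control library of ZT12 replicate 1, and without ZT12 the log2 fold change was 0.96. The other member of this list that rose was ci, the transcription factor of the Hedgehog pathway (0.38).

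Among 12 housekeeping genes 3 fell and none rose. The P5-type ATPase gene anne (chr4:132220-143123, plus strand) had 201.3, 283.6 and 330.2 CPM with Set1 RNAi, against 338.4, 477.8 and 971.5 CPM in the control. The groups did not overlap, with a log2 fold change of -0.80 (SE 0.08, adjusted p = 9.1e-12 in edgeR's quasi-likelihood test). The zinc transporter gene Zip102B had a log2 fold change of -0.72. Of the 3 eye regulators, sv rose (0.40, adjusted p = 0.0026), while ey (-0.04, adjusted p = 0.49) and toy (0.06, adjusted p = 0.44) were not called. Of the 3 genes on the list of muscle and fat, the zyxin gene Zyx fell (-0.41), and apolpp (0.00) and the projectin gene bt (0.27, adjusted p = 0.18) were not called.

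Of the 38 members with no role list, 15 fell and 7 rose. CG11076 (chr4:1029711-1031757, minus strand) had 9.903, 18.46 and 26.27 CPM with Set1 RNAi, against 26.74, 38.82 and 88.01 CPM in the control, and the groups did not overlap. Its log2 fold change was -1.10 (SE 0.07, adjusted p = 5.4e-19 in edgeR's quasi-likelihood test). CG46466 (chr4:661009-663124, minus strand) had 10.05, 18.86 and 23.55 CPM with Set1 RNAi, against 17.01, 38.6 and 89.9 CPM in the control, with a log2 fold change of -1.15 (SE 0.10, adjusted p = 1.3e-14). Both were under 2-fold without replicate 3, at -0.95 for CG11076 and -0.98 for CG46466. CG31999 (chr4:215009-227748, minus strand) was higher, with 41.45, 54.81 and 70.03 CPM with Set1 RNAi, against 17.17, 25.51 and 42.7 CPM in the control, and a log2 fold change of 1.11 (SE 0.08, adjusted p = 1.4e-18). Its groups overlapped only between the lowest Set1 RNAi and the highest control library.

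**Figure D2:**
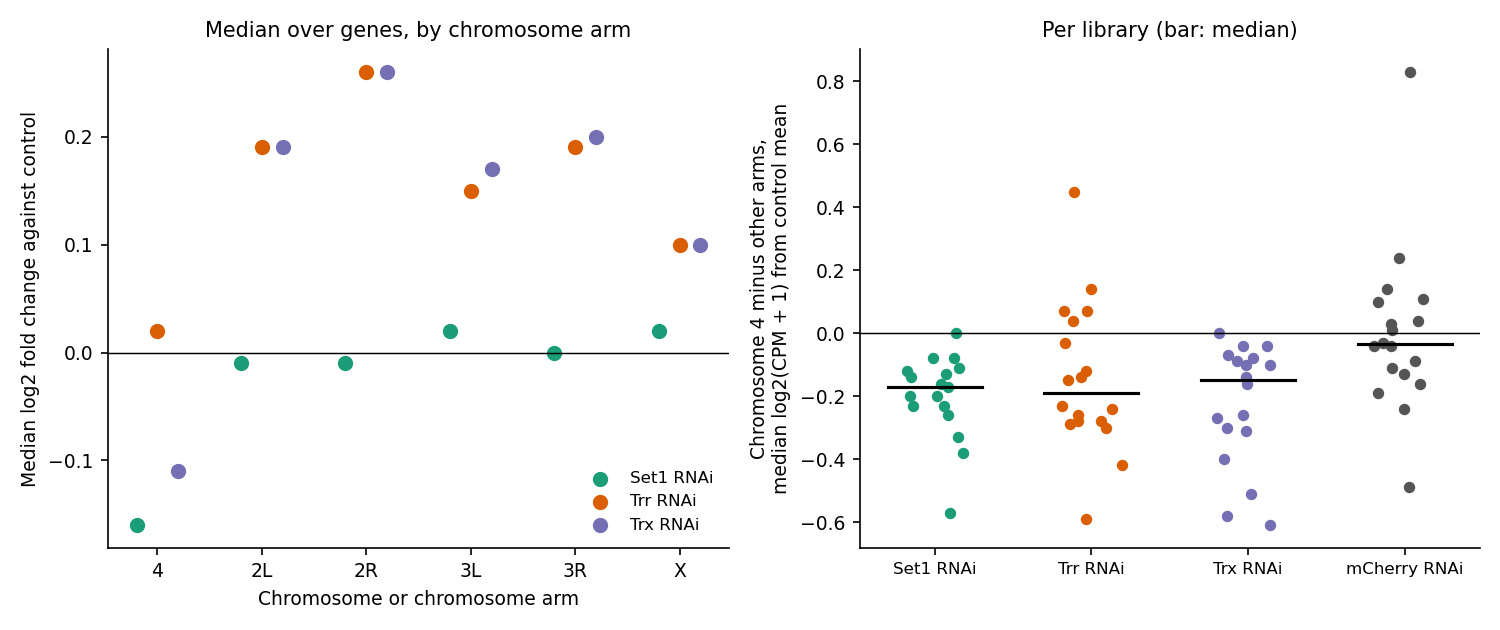
Left, median log2 fold change of the genes of each chromosome arm against the control with Set1, Trr and Trx RNAi. Right, the members' median minus that of the other arms in each library, with Set1, Trr and Trx RNAi left of the control. With Set1 RNAi chromosome 4 stands at -0.16 and the other arms lie between -0.01 and 0.02, and 1 control library reaches 0.83.

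The small shift of the chromosome with Set1 RNAi was also described library by library. Relative to the genes of the other arms, the members' median log2(CPM + 1), each gene taken as its distance from its control mean, was -0.57, -0.17 and 0.00 as lowest, median and highest with Set1 RNAi, against -0.49, -0.03 and 0.83 in the control. It was below 0 in 16 of 17 Set1 RNAi libraries and in 10 of 18 control libraries, so the groups overlapped, and the 0.83 belonged to the control library of ZT20 replicate 3. The shift was not particular to Set1 RNAi. By the same measure Trr RNAi had -0.59, -0.19 and 0.45, with 13 of 18 libraries below 0. Trx RNAi had -0.61, -0.15 and -0.00, with 18 of 18 below 0. By time point the members' median log2 fold change with Set1 RNAi was -0.20 at ZT0, -0.06 at ZT4, -0.13 at ZT8, -0.04 at ZT12, -0.19 at ZT16 and -0.50 at ZT20. The other arms stayed between -0.03 and 0.06 at every time point. The value at ZT20 includes the control library of replicate 3 and was not taken without it. Relative to the other arms, the Set1 RNAi libraries of ZT20 stood at -0.13 and -0.14. The control libraries of ZT20 stood at 0.14, 0.03 and 0.83. Without the control library of ZT20 replicate 3 and the Trx RNAi library of ZT12 replicate 1, 41 members were lower and 14 higher, with a median of -0.12. Without the control library of ZT12 replicate 1, 44 were lower and 12 higher. The count of lower members was 29 without replicate 2 and 26 without replicate 3 of every group.

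When Trr or Trx was targeted, the members moved in both directions by larger amounts, and both knockdowns share the control. With Trr RNAi 23 members were at least 2-fold higher and 11 lower, while 28.5% of all features were higher and 17.9% lower by that rule. With Trx RNAi 22 were higher and 15 lower, while 28.5% of all features were higher and 18.7% lower. The shares of the members were thus at or below those of all features. The members' median log2 fold change was 0.02 under Trr RNAi and -0.11 under Trx RNAi, beside 0.10 to 0.26 on the other arms with either knockdown.

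These splits depended on the scaling. When libraries were scaled by their totals alone, the median of all features stood at 0.71 under Trr RNAi and 0.78 under Trx RNAi, with 30 members higher and 4 lower for Trr RNAi and 32 higher and 4 lower for Trx RNAi. With DESeq2's size factors, 25 were higher and 7 lower for Trr RNAi and 24 higher and 11 lower for Trx RNAi.

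**Figure D3:**
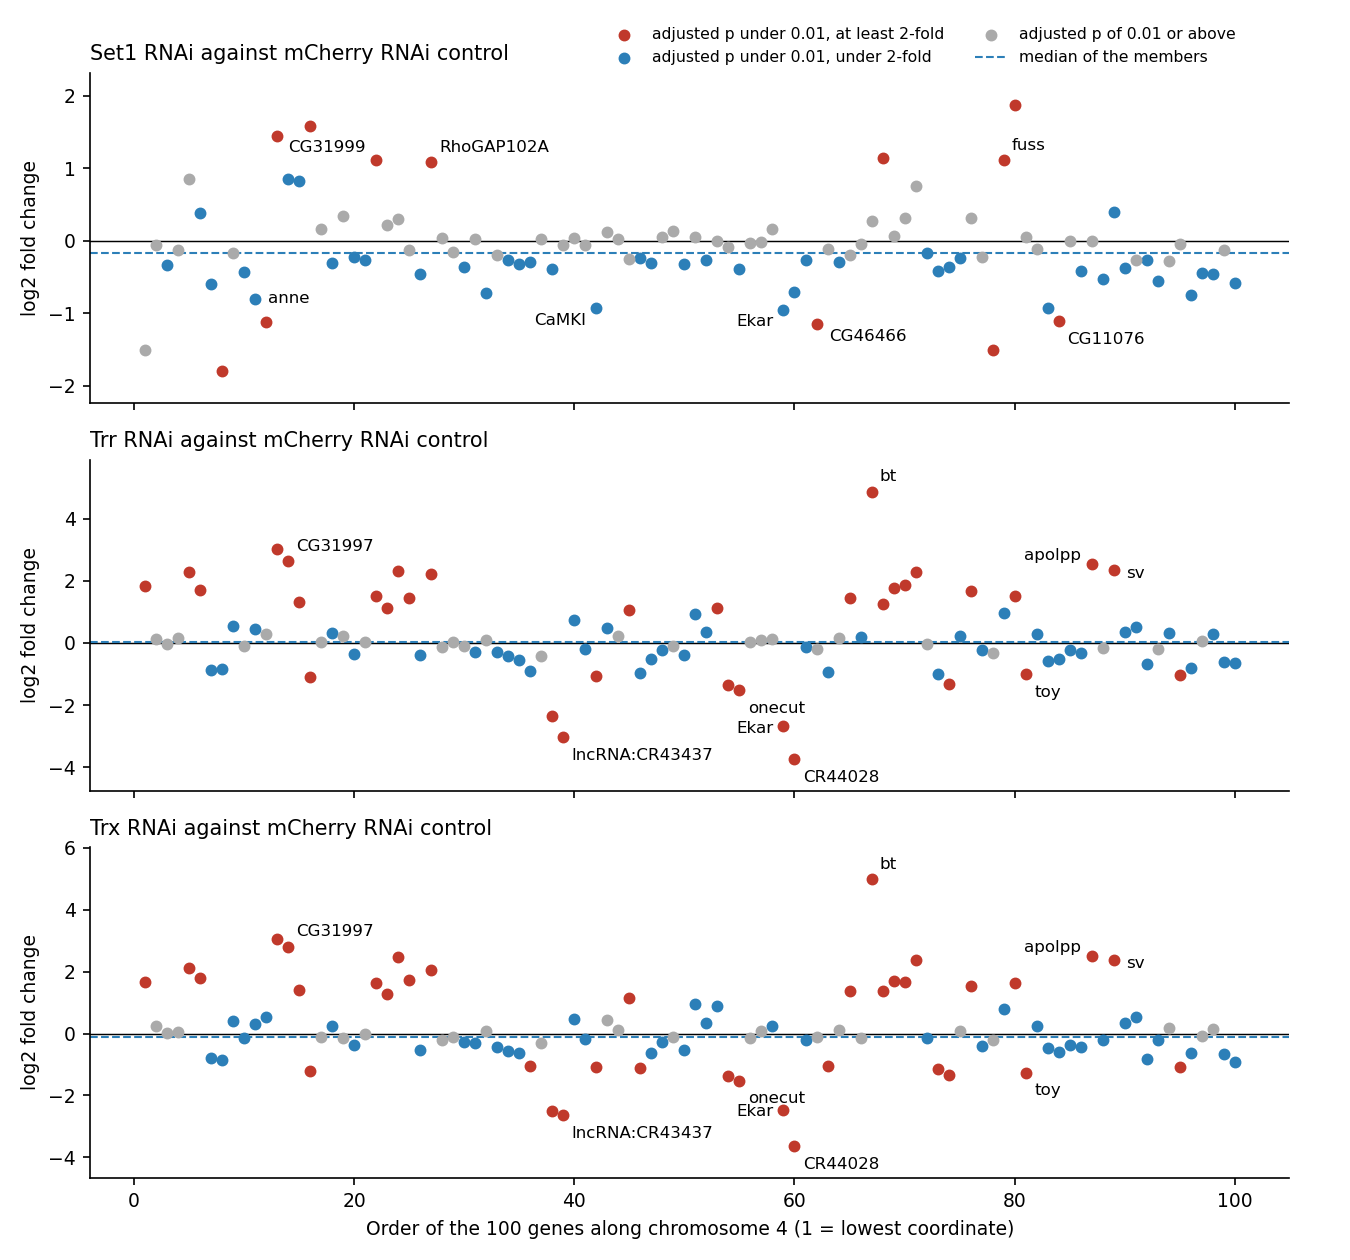
Log2 fold change against the control of each member in its order along chromosome 4, with Set1, Trr and Trx RNAi from top to bottom. Red points changed at least 2-fold with adjusted p under 0.01, blue points passed the same adjusted p with a smaller change, grey points did not pass, and the dashed line is the members' median.

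Genes known from muscle, fat body and the cone and bristle cells of the eye were among the members that rose most, beside genes with no role list. Among these last, CG32006 (3.01 for Trr RNAi and 3.07 for Trx RNAi on the log2 scale, at medians of 1.545 CPM with Trr RNAi and 1.678 CPM with Trx RNAi, against 0.1135 CPM in the control) was named after its values were seen. Its highest control value was 0.9043 CPM, so it passed the filter of 1 CPM only through knockdown groups. The rise of CG32006 is thus in part given by the filter. The projectin gene bt, a giant protein of muscle sarcomeres (chr4:724400-776474, plus strand), had 181.8, 467.3 and 671.5 CPM as lowest, median and highest value with Trr RNAi and 224.4, 466.5 and 865.9 CPM with Trx RNAi, against 8.769, 14.84 and 21.97 CPM in the control. No knockdown library reached down to a control library. The log2 fold change was 4.86 with Trr RNAi (SE 0.17, adjusted p = 5e-33 in edgeR's quasi-likelihood test) and 4.99 with Trx RNAi (SE 0.17, adjusted p = 1.7e-33). Of the 8 muscle markers, 6 moved with it, the most abundant of them Mhc at medians of 530.2 CPM with Trr RNAi and 588.8 CPM with Trx RNAi, against 9.863 CPM in the control. The other two, Tm1 and flw, moved the other way. Tm1 had medians of 358.3 CPM with Trr RNAi and 323.7 CPM with Trx RNAi, against 1496 CPM in the control, and flw had 238.1 and 197.8 CPM, against 748.3 CPM. The part of muscle RNA in the value of bt was not tested.

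The lipoprotein gene apolpp (chr4:1060969-1077273, plus strand) had 6476, 8792 and 10850 CPM with Trr RNAi and 5453, 8937 and 11520 CPM with Trx RNAi, against 1062, 1575 and 2267 CPM in the control. The groups did not overlap, and the log2 fold change was 2.53 with Trr RNAi (SE 0.09, adjusted p = 2.2e-33 in edgeR's quasi-likelihood test) and 2.50 with Trx RNAi (SE 0.09, adjusted p = 3.8e-33). The summed fat body markers had medians of 447.3 CPM with Trr RNAi and 493.4 CPM with Trx RNAi, against 157.8 CPM in the control, and 4 of the 5 tested were higher with either knockdown. Of the 8 glia markers 6 were higher with either knockdown, with a median log2 fold change of 1.56 in both. The part of these cells in the value of apolpp was not tested. The zyxin gene Zyx of the same list fell by less than 2-fold, with -0.32 for Trr RNAi and -0.42 for Trx RNAi.

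The eye regulators moved apart. The Pax2 homolog sv, which acts in cone and bristle cells of the eye (chr4:1088798-1113317, plus strand), had 75.14, 91.28 and 110.2 CPM with Trr RNAi and 66.04, 95.53 and 117.2 CPM with Trx RNAi, against 8.279, 17.14 and 27.79 CPM in the control. The groups did not overlap, with log2 fold changes of 2.36 for Trr RNAi (SE 0.11, adjusted p = 3e-27 in edgeR's quasi-likelihood test) and 2.39 for Trx RNAi (SE 0.11, adjusted p = 1.5e-27). The 4 pigment and lens markers tested had a median log2 fold change of 2.59 under Trr RNAi and 2.69 under Trx RNAi, with 3 of them higher and 1 lower in either case, and their part in the value of sv was not tested. The Pax6 gene toy (chr4:989725-1007922, plus strand) had 153.8, 217.2 and 292.2 CPM with Trr RNAi and 141.5, 185.8 and 222.6 CPM with Trx RNAi, against 282.3, 432.9 and 616.5 CPM in the control. The Trr RNAi libraries just overlapped the control and the Trx RNAi libraries did not. The log2 fold change was -1.01 for Trr RNAi (SE 0.06, adjusted p = 1.4e-23) and -1.26 for Trx RNAi (SE 0.06, adjusted p = 8.7e-28). The value for Trr RNAi was -0.38 with scaling by library totals and -0.89 with DESeq2's size factors.

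Ekar had the largest fall of any protein-coding member with Trr RNAi and with Trx RNAi. It had 31.55, 58.2 and 140.6 CPM with Trr RNAi and 40.16, 69.28 and 103.7 CPM with Trx RNAi, all below the lowest control library at 207.5 CPM. The 15 outer photoreceptor markers had medians of -2.41 for Trr RNAi and -2.54 for Trx RNAi, and their part in the falls of Ekar and the genes below was not tested. The log2 fold change of Ekar was -2.68 for Trr RNAi (SE 0.09, adjusted p = 4.4e-34 in edgeR's quasi-likelihood test) and -2.46 for Trx RNAi (SE 0.09, adjusted p = 1.7e-32). CR44028, a pseudogene inside the span of Ekar on the opposite strand (chr4:637333-637787), fell further still. It had 1.356, 3.078 and 9.444 CPM with Trr RNAi and 1.376, 3.211 and 5.752 CPM with Trx RNAi, against 11.38, 41.7 and 114.5 CPM in the control, with log2 fold changes of -3.72 for Trr RNAi and -3.63 for Trx RNAi. The counts were made without strand, so reads of CR44028 and of unspliced Ekar RNA cannot be told apart.

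CaMKI fell with both knockdowns and stood below all control libraries. It had 495.3, 746.1 and 1006 CPM with Trr RNAi and 486.9, 776.6 and 995.6 CPM with Trx RNAi, against a lowest control value of 1132 CPM, and its log2 fold change was -1.07 for either (SE 0.06). With scaling by library totals it was -0.44 for Trr RNAi and -0.37 for Trx RNAi. The level of unc-13 was 2666, 4141 and 6709 CPM with Trr RNAi and 2177, 4064 and 5274 CPM with Trx RNAi, against 4680, 7837 and 16980 CPM in the control. These groups overlapped, with log2 fold changes of -0.99 for Trr RNAi (SE 0.08, adjusted p = 2.4e-17 in edgeR's quasi-likelihood test) and -1.16 for Trx RNAi (SE 0.08, adjusted p = 3.6e-20). The tau tubulin kinase homolog Asator had -0.96 for Trr RNAi and -1.13 for Trx RNAi, and the potassium channel partner Slip1 had -0.94 and -1.05 in the same order.

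The metabotropic glutamate receptor gene mGluR went the other way. It had 117.8, 168.5 and 253.1 CPM with Trr RNAi and 102.7, 159.3 and 184.3 CPM with Trx RNAi, against 31.52, 54.11 and 90.8 CPM in the control, without overlap. Its log2 fold change was 1.67 for Trr RNAi and 1.52 for Trx RNAi. Of 8 brain neuron markers 6 were higher and 1 lower with either knockdown, with medians of 1.44 for Trr RNAi and 1.28 for Trx RNAi, and their summed level had medians of 1196 CPM with Trr RNAi and 1121 CPM with Trx RNAi, against 450.3 CPM in the control. The part of these cells in the value of mGluR was not tested. Of the 10 synaptic genes it was the only one at least 2-fold higher with either knockdown, and Ekar with Trr RNAi, and Ekar and unc-13 with Trx RNAi, were the ones at least 2-fold lower, while 17.9% and 18.7% of all features were lower by that rule in the same order.

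Transcription factors of chromosome 4 changed in both directions. The homeodomain factor onecut (chr4:598555-607649, minus strand) had 409, 508.6 and 734 CPM with Trr RNAi and 392.8, 477.6 and 753.7 CPM with Trx RNAi, against 748, 1428 and 2503 CPM in the control. The Trr RNAi libraries did not overlap the control and the highest Trx RNAi library just did, and the log2 fold change was -1.51 for Trr RNAi (SE 0.06, adjusted p = 1.1e-29 in edgeR's quasi-likelihood test) and -1.52 for Trx RNAi (SE 0.06, adjusted p = 7.3e-30). The DNA-binding Polycomb group protein pho had -1.04 for Trr RNAi and -1.09 for Trx RNAi, and the zinc finger gene dati fell at least 2-fold with Trx RNAi (-1.04). Rises came from ci with 1.70 for Trr RNAi and 1.79 for Trx RNAi, from Sox102F of the Sox family with 1.76 and 1.69, and from the forkhead gene fd102C with 1.86 and 1.66 in the same order, the last at medians of 4.457 CPM with Trr RNAi and 4.119 CPM with Trx RNAi, against 1.387 CPM in the control.

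RhoGAP102A rose with Trr and Trx RNAi as it did with Set1 RNAi. It had 83.62, 124.2 and 214.5 CPM with Trr RNAi and 71.4, 117.9 and 148.9 CPM with Trx RNAi, all above the highest control library at 53.16 CPM, with log2 fold changes of 2.23 (SE 0.12, adjusted p = 6.8e-25 in edgeR's quasi-likelihood test) and 2.06 (SE 0.12, adjusted p = 1.7e-23) in that order. The TGF-beta ligand myo had 1.45 for Trr RNAi and 1.37 for Trx RNAi. CG31997 (chr4:154654-156060, minus strand) had 12.27, 16.08 and 20.9 CPM with Trr RNAi and 12.19, 19.14 and 26.23 CPM with Trx RNAi, against 0.4596, 2.048 and 27.45 CPM in the control. Its overlap with the control came from the control library of ZT12 replicate 1 at 27.45 CPM. The log2 fold change was 2.63 for Trr RNAi and 2.81 for Trx RNAi.

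Noncoding members also fell. lncRNA:CR43437 (chr4:426067-426601, plus strand) had 0.775, 1.241 and 2.103 CPM with Trr RNAi and 0.9784, 1.454 and 2.785 CPM with Trx RNAi, against 0, 10.7 and 14.39 CPM in the control. The control value of 0 again came from ZT12 replicate 1. Its log2 fold change was -3.03 for Trr RNAi (SE 0.17, adjusted p = 5.5e-23 in edgeR's quasi-likelihood test) and -2.64 for Trx RNAi (SE 0.17, adjusted p = 5.8e-21). asRNA:CR44027 (chr4:395396-395954, plus strand) had medians of 5.912 CPM with Trr RNAi and 5.392 CPM with Trx RNAi, against 30.64 CPM in the control, without overlap, and log2 fold changes of -2.36 and -2.50 in the same order. Since 37.6% of its exon bases are shared with another gene, its counts are uncertain. asRNA:CR44029, which lies within unc-13 on the opposite strand, had -1.32 for Trr RNAi and -1.33 for Trx RNAi, close to the values of unc-13, and 13.1% of its bases are shared.

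Few members differed between Trr and Trx RNAi, whose libraries share a sequencer in the design text and in the methods alike. With adjusted p under 0.01 in edgeR's quasi-likelihood test, 3 members were higher with Trr RNAi than with Trx RNAi and none was lower, while 3.37% of all features were higher and 2.16% lower. At an unadjusted p under 0.05 the counts were 22 higher and 5 lower, but the share of all features by that rule was not taken. The members' median log2 fold change was 0.06, beside -0.00 over all features. DESeq2's Wald test called 1 lower. The Pax6 gene ey (chr4:697689-721173, plus strand) had 73.05, 86.46 and 94.3 CPM with Trr RNAi, against 55.47, 69.03 and 82.7 CPM with Trx RNAi. The groups overlapped, with a log2 fold change of 0.30 (SE 0.05, adjusted p = 1.7e-06). Its paralog toy had a log2 fold change of 0.25 (SE 0.06, adjusted p = 0.0013) with overlapping groups. CG1909 had 152.4, 198 and 241.3 CPM with Trr RNAi, against 136, 170.2 and 210.5 CPM with Trx RNAi, and a log2 fold change of 0.22 (SE 0.06, adjusted p = 0.0097). Leaving out replicate 1, 2 or 3 of every group gave log2 fold changes of 0.27, 0.26 and 0.33 for ey. In the same order they were 0.18, 0.22 and 0.30 for toy and 0.18, 0.17 and 0.26 for CG1909. Each of the 3 calls was lost in 1 or more of these smaller fits, and the part of single replicates and of fewer libraries in that was not tested. The call of CG1909 was lost in each of them and also in larger fits. In edgeR's quasi-likelihood test its adjusted p was 0.022 with all 72 libraries, 0.1 with library totals and 0.011 with a replicate block. It kept the call with DESeq2's size factors (0.0096) and with 1 or 3 RUVs factors (0.0036 and 0.0031).

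Along the chromosome the small decrease with Set1 RNAi was spread over all of its length. The members were divided by gene order into 33 proximal, 33 middle and 34 distal genes, a description with no test. With Set1 RNAi the median log2 fold changes were -0.12 in the proximal, -0.19 in the middle and -0.23 in the distal genes. By adjusted p alone 12 proximal genes were lower and 7 higher, 15 middle genes lower and none higher, and 16 distal genes lower and 4 higher. For Trr and Trx RNAi the middle genes stood lowest. Their medians were -0.20 under Trr RNAi and -0.21 under Trx RNAi, beside 0.17 and 0.07 in the proximal genes and 0.00 and -0.13 in the distal genes, in the same order. At least 2-fold changes with Trr RNAi were 11 higher and 1 lower among proximal genes, 3 higher and 7 lower among middle genes, and 9 higher and 3 lower among distal genes. In the plot of fold change by gene order, genes that fell and genes that rose with Trr RNAi stand near each other, such as onecut and Ekar beside CG1909, or toy beside sv and apolpp.

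The second question of the study was how each methyltransferase affects rhythmic expression over the day. In the control, most genes of chromosome 4 had a rhythm and most of these peaked at night. A 24-h rhythm was called for 62 members in the control (adjusted p under 0.05 over all features, edgeR's quasi-likelihood test of the cosine and sine terms), while 42.6% of all features were called. On the other arms 40.5% to 46.0% of the genes were rhythmic. Among protein-coding genes the shares were 64.5% of the members and 43.6% of the other arms. Of the 62, 48 peaked from ZT16 to ZT24 (77.4%), whereas 2527 of all 6293 rhythmic features did (40.2%). By interval, 4 members peaked at ZT0 to 4, none at ZT4 to 8, 1 at ZT8 to 12, 9 at ZT12 to 16, 25 at ZT16 to 20 and 23 at ZT20 to 24. Over all features 1124 peaked at ZT4 to 8.

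The number of rhythmic members was sensitive to the libraries used. Without the control library of ZT20 replicate 3 and the Trx RNAi library of ZT12 replicate 1, 49 members were rhythmic in the control, beside 39.2% of all features. Of these 49, 29 peaked from ZT16 to ZT24 (59.2%) and 0 at ZT4 to 8. Without the control library of ZT12 replicate 1, 56 were rhythmic and 80.4% of them peaked from ZT16 to ZT24. Without replicate 3 of every group 37 members remained called, beside 33.9% of all features, and with the control fitted on its own 32, beside 21.4%.

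Fewer members were rhythmic in the knockdowns than in the control, but for Set1 RNAi the order turned with each genotype fitted on its own, which gave 45 rhythmic members with Set1 RNAi, against 32 in the control. The counts were 37 with Set1 RNAi, while 34.1% of all features were rhythmic, 4 with Trr RNAi, while 5.88% were, and 1 with Trx RNAi, while 4.06% were. The 4 with Trr RNAi were Ekar, CR44028, unc-13 and the complex I subunit gene ND-49, and the 1 with Trx RNAi was onecut. All 5 were also rhythmic in the control. Of the 62 members rhythmic in the control, 29 were also called with Set1 RNAi. The amplitude, the rise of the peak above the mean of a cosine fitted to log2(CPM + 1), had a median over these 62 of 0.23 under Set1 RNAi, 0.17 under Trr RNAi and 0.12 under Trx RNAi, against 0.39 in the control. The 62 were chosen by the control's own test, so these medians are a description. The same medians over all features rhythmic in the control were 0.32, 0.14 and 0.11, against 0.45.

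**Figure D4:**
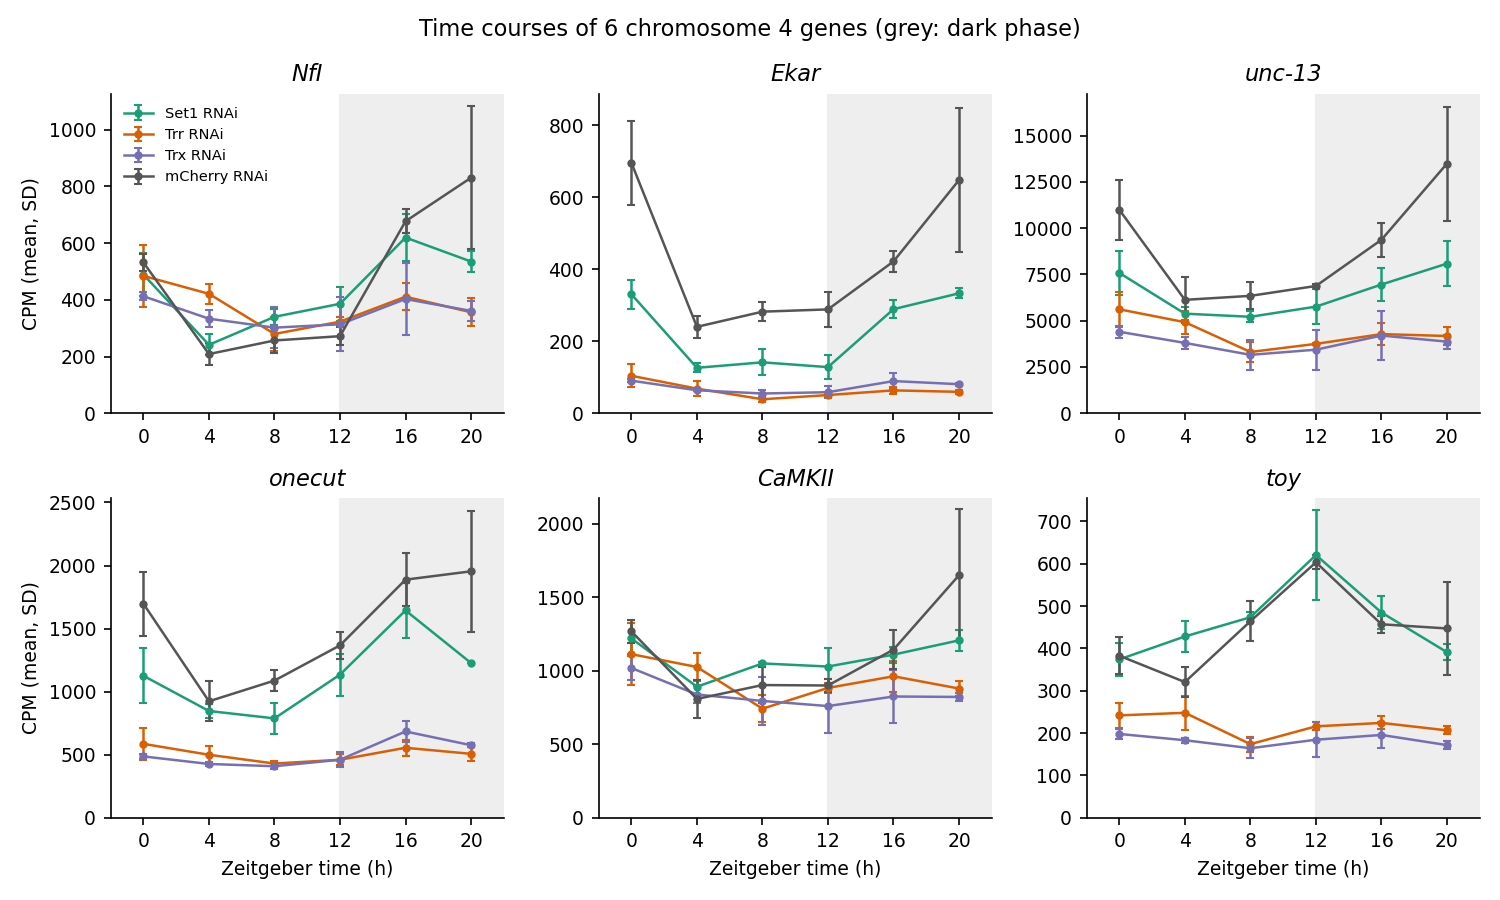
Mean level in CPM (± SD, n = 3 replicates, 2 for Set1 RNAi at ZT20) of NfI, Ekar, unc-13, onecut, CaMKII and toy at the 6 zeitgeber times, with 1 line each for Set1, Trr and Trx RNAi and the control and the dark phase shaded. The control and Set1 RNAi lines of NfI and onecut climb into the dark phase, while those of Trr and Trx RNAi are flatter.

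A test of the difference in rhythm itself called 3 members with Set1 RNAi, while 3.60% of all features were called, 26 with Trr RNAi, while 21.0% were, and 20 with Trx RNAi, while 17.6% were. The shares of the members were thus near those of all features. For Trr RNAi they were 21% of the members and 20.8% of all features with all 72 libraries, and 22% and 21.1% with scaling by library totals. Nuclear factor I (NfI), a transcription factor (chr4:268175-276369, minus strand), had the largest control amplitude of the rhythmic members. Its control means were 208.7 ± 39.8 CPM at ZT4 and 830.5 ± 251.4 CPM at ZT20 (SD, n = 3), and at the same times it averaged 241.3 ± 36.8 and 535 ± 35.5 CPM with Set1 RNAi (n = 3 and n = 2), 421.2 ± 36.3 and 356.1 ± 48.9 CPM with Trr RNAi, and 333.4 ± 29.3 and 360.9 ± 34.7 CPM with Trx RNAi. The amplitude was 0.60 under Set1 RNAi, 0.27 under Trr RNAi and 0.21 under Trx RNAi, against 1.02 in the control with a peak at ZT19.2. The rhythm differed from the control with Trr RNAi (adjusted p = 5.6e-06 in edgeR's quasi-likelihood test) and with Trx RNAi (adjusted p = 1.4e-05), but not past the threshold with Set1 RNAi (adjusted p = 0.068).

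The rhythms of dati, Gat and toy were among those that passed the test of a difference for both Trr and Trx RNAi and did not pass it for Set1 RNAi. Others with this pattern include ci, Syt7, lgs, Pur-alpha and mav. The zinc finger gene dati had 0.46 under Set1 RNAi, 0.21 under Trr RNAi and 0.10 under Trx RNAi, against 0.67 in the control, with adjusted p of the difference of 0.38, 0.0011 and 8.6e-05 in edgeR's quasi-likelihood test. The GABA transporter Gat, with a control peak near lights on (ZT0.37), had amplitudes of 0.49, 0.11 and 0.10 for Set1, Trr and Trx RNAi, against 0.54 in the control, with adjusted p of 0.78, 0.0022 and 0.0019. For toy the amplitudes were 0.31, 0.12 and 0.06 in that order, against 0.34, with adjusted p of 0.55, 0.00068 and 0.011, and its control peak at ZT13.45 was earlier than that of most members. A difference that passed with Trr or Trx RNAi and not with Set1 RNAi was not itself tested between the knockdowns.

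The most abundant member, unc-13, had amplitudes of 0.34, 0.28 and 0.21 for Set1, Trr and Trx RNAi, against 0.57 in the control, with adjusted p of the difference of 0.38, 0.0089 and 0.028 in edgeR's quasi-likelihood test. CaMKII had 0.16, 0.17 and 0.17, against 0.45, with adjusted p of 0.15, 0.023 and 0.01. The antisense RNA asRNA:CR44029 within unc-13 had 0.41, 0.31 and 0.24, against 0.76, with adjusted p of 0.23, 0.0013 and 0.011. The homeodomain factor onecut had 0.49, 0.17 and 0.34, against 0.54, and its rhythm differed from the control with Trr RNAi (adjusted p = 0.0022) but not past the threshold with Trx RNAi (0.23).

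Ekar was called rhythmic with Set1 RNAi (adjusted p = 6.4e-08 in edgeR's quasi-likelihood test), with Trr RNAi (0.0042) and in the control (1e-07), and missed the threshold with Trx RNAi (0.096). Its amplitude was 0.87 under Set1 RNAi, 0.47 under Trr RNAi and 0.38 under Trx RNAi, against 0.74 in the control with a peak at ZT20.67, and no difference in rhythm passed the threshold (adjusted p of 0.83, 0.15 and 0.17 in edgeR's quasi-likelihood test). CR44028 within it had 0.92, 0.49 and 0.31, against 0.93. The antisense RNAs asRNA:CR43957 (0.61, 0.28 and 0.10, against 0.70) and asRNA:CR44027 (0.58, 0.20 and 0.12, against 0.68) also had large control amplitudes, and of their differences in rhythm only that of asRNA:CR44027 with Trx RNAi passed (adjusted p = 0.022).

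Rhythms were also classified by model selection with the models of dryR, the tool named in the methods, but without the RUVseq correction that the methods describe. Each member was assigned to the best of 52 models that give each genotype its own, a shared or no rhythm, and 52 members were classified at a Bayesian information criterion weight of at least 0.4. Of these, 40 had a rhythm in the control. Set1 RNAi lost it in 10, Trr RNAi in 27 and Trx RNAi in 29, and the control rhythm was kept unchanged in 26 under Set1 RNAi, 5 under Trr RNAi and 3 under Trx RNAi. For 17 members the best model had the rhythm lost with Trr and Trx RNAi and unchanged with Set1 RNAi. Over all features 9588 were classified, 5686 with a control rhythm, of which 1119, 4086 and 4239 lost it with Set1, Trr and Trx RNAi. The control rhythm was kept unchanged in 3871, 826 and 761 features in the same order. For 2558 features it was lost with Trr and Trx RNAi and unchanged with Set1 RNAi. The members were not compared with all features by a test.

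Copies of transposable elements lie inside many of these genes and are counted as features of their own. On chromosome 4, 388 copies passed the filter, and 290 of them lie within the span of a member. In all, 66 members hold at least 1 copy and 40 hold at least 3. Since the nuclear RNA holds unspliced transcripts and the counts carry no strand, reads of a copy and of the intron around it cannot be told apart. The median log2 fold change of the 388 copies was -0.12 under Set1 RNAi, -0.32 under Trr RNAi and -0.39 under Trx RNAi, beside 0.15, -0.56 and -0.60 over 2299 copies elsewhere in the genome. Within members the medians were -0.18, -0.23 and -0.37 for Set1, Trr and Trx RNAi, and outside members 0.07, -0.94 and -0.67.

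Copies followed the gene that holds them. Among the 40 members with at least 3 copies, the median of the copies had the sign of the member in 36 with each of the 3 knockdowns. All 9 copies within Ekar were lower with every knockdown, with medians of -0.72 for Set1 RNAi, -2.60 for Trr RNAi and -2.73 for Trx RNAi, and 9 of 9 were at least 2-fold lower with Trr RNAi, as they were with Trx RNAi. The 10 copies within sv had medians of 0.49, 3.47 and 3.31 in the same order, and 10 of 10 were at least 2-fold higher with Trr RNAi and likewise with Trx RNAi. Cadps held 22 copies, all of which were lower with Set1 RNAi at a median of -0.41, and toy held 13 with medians of 0.03, -0.97 and -1.26, close to its own 0.06, -1.01 and -1.26. With Set1 RNAi, 4 of 6 copies within fuss were at least 2-fold higher and 1 at least 2-fold lower, at a median of 1.37, and 3 of 5 copies within CG31999 were at least 2-fold higher and none lower by that rule, at a median of 1.23. An exception was Slip1, whose 3 copies had a median of 0.42 with Trr RNAi while the gene had -0.94.

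**Figure D5:**
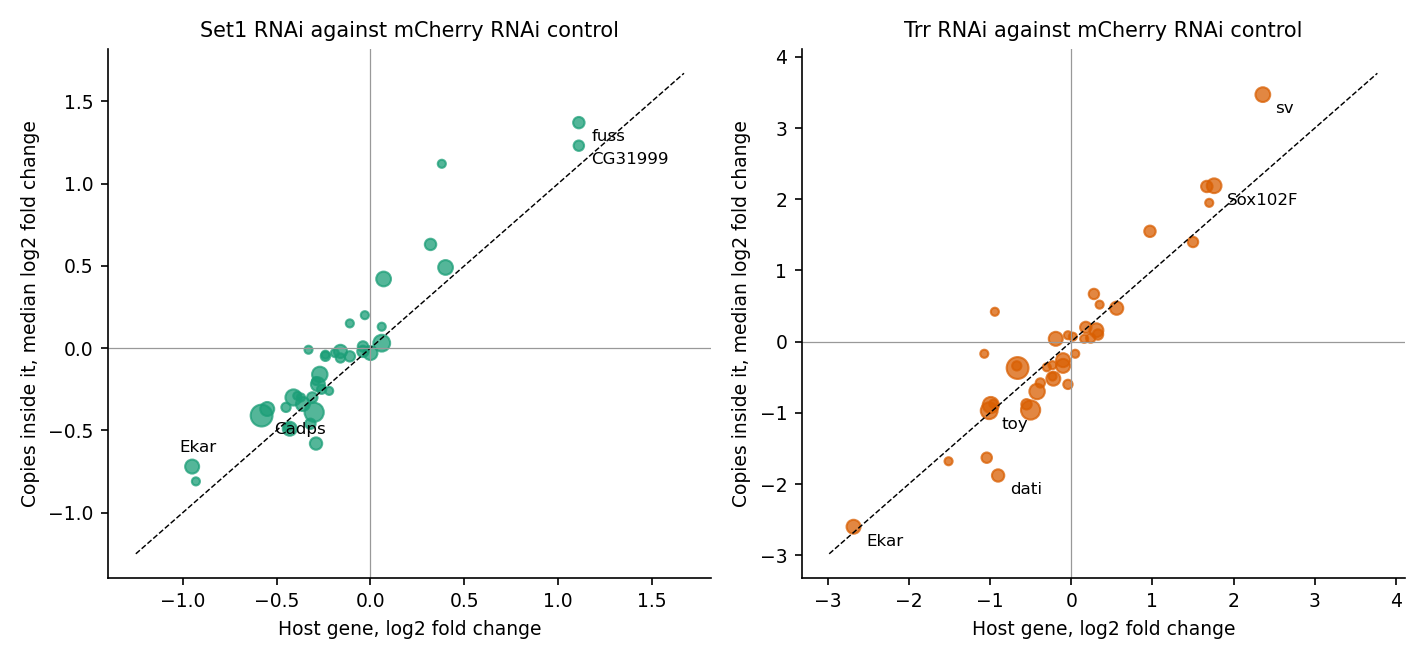
Median log2 fold change of the transposable element copies inside a member (y axis) against the log2 fold change of the member itself (x axis), for members with at least 3 copies, with Set1 RNAi on the left and Trr RNAi on the right. The size of a point grows with the number of copies and the dashed line marks equality. Ekar and sv lie at opposite ends with Trr RNAi.

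Genes whose products bind or mark chromosome 4 lie on other chromosomes and were examined beside the members. The level of Pof had a median of 8.582 CPM with Set1 RNAi, 14.38 CPM with Trr RNAi and 13.28 CPM with Trx RNAi, against 11.09 CPM in the control. Its log2 fold change was -0.38 with Set1 RNAi (SE 0.09, adjusted p = 0.00021 in edgeR's quasi-likelihood test), 0.43 with Trr RNAi (SE 0.08, adjusted p = 2.6e-06) and 0.30 with Trx RNAi (SE 0.08, adjusted p = 0.00071). A part of Pof in the members' levels was not tested. The gene that encodes HP1a had -0.17 with Set1 RNAi (adjusted p = 0.083), 0.47 for Trr RNAi (1.3e-07) and 0.48 for Trx RNAi (8.6e-08). The H3K9 methyltransferase gene egg passed with no knockdown, with log2 fold changes of -0.06, -0.10 and -0.05 for Set1, Trr and Trx RNAi. At least 2-fold lower were Hmt4-20, the H4K20 methyltransferase, with -1.08 for Trr RNAi and -1.22 for Trx RNAi, and, for Trr RNAi alone by that threshold, the histone demethylase Kdm4A with -1.02, beside -0.91 for Trx RNAi. Of the others on the list, Su(var)3-9 rose with Set1 RNAi (0.38, adjusted p = 0.00043 in edgeR's quasi-likelihood test). The gene wde rose with Trr RNAi (0.51, adjusted p = 1.8e-06), Su(var)3-7 fell with Trx RNAi (-0.16, adjusted p = 0.0049), and G9a passed with no knockdown.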

How the data were processed

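The authors purified GFP-tagged outer photoreceptor nuclei, depleted ribosomal RNA, sequenced the nuclear RNA and deposited 1 table of raw counts per gene and transposable element copy for each of 72 libraries. Per the labels and file headers, reads were trimmed with cutadapt 3.7 and Trimmomatic 0.39, aligned with HISAT2 2.2.1 and SAMtools 1.17, and counted over exons with featureCounts (Subread 2.0.1) against BDGP6.46, Ensembl 111, without strand, multi-mapping or reads shared between features. Reads in introns and in repeats that align to several places are thus missing from gene counts.

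A feature was kept if all replicates of some group reached 1 CPM (14767 features). Counts were scaled by TMM and fitted with edgeR 4.0.16 (R 4.3.3) in 1 model over 71 libraries. Knockdowns were compared with the control as means over 6 time points, and p-values were adjusted by Benjamini-Hochberg over all features tested. Calls needed an adjusted p below 0.01. Where "at least 2-fold" is written, they also needed a log2 fold change of 1 or more in size. Rhythms were tested in a second edgeR fit with cosine and sine terms of 24 h per genotype at an adjusted p under 0.05. The 52 rhythm models of dryR were written out with DESeq2 1.42.0 size factors and dispersions. The tests were checked on simulated counts. Biotypes came from Ensembl 115 (BDGP6.54), matched by identifier. Figures were drawn with matplotlib 3.10.9 in Python 3.11.15.

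Members named with full values were the 5 largest rises and 5 largest falls among those called in each knockdown, provided the higher of the 2 means reached 10 CPM and no time point went the other way, the 3 largest between Trr and Trx RNAi, the 6 highest control levels per kb, the 6 largest control amplitudes, the members whose rhythm differed with Set1 RNAi, and the eye, muscle and fat lists. Others were named by their role list. The members, the role lists from general knowledge and the markers were chosen with earlier results of these data known. All replicate pairs differed by more than counting noise (lowest chi-square per feature 4.099). Alternatives covered scaling, filters, RUVs factors, the fitting tool, the samples fitted, left-out replicates and a replicate block. Those that leave out a time point, 2 libraries of extreme chromosome 4 share or the control library of ZT12 replicate 1, or keep protein-coding members, were chosen after seeing the data. A search for promoter motifs was not run here. The values of 1 member are not reported here.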

Additional observations from a re-analysis of the deposited data

Results flagged for a closer look

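The 24-h rhythm of 3 members differed between Set1 RNAi and the control, that of 26 members between Trr RNAi and the control and that of 20 members between Trx RNAi and the control, by the edgeR interaction test of the cosine and sine terms (adjusted p under 0.05). Over all features the same test called 3.60%, 21.0% and 17.6% in that order, near the shares of the members.

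The 3 with Set1 RNAi are low-level transcripts, and their calls rest on few libraries. lncRNA:CR45199 (adjusted p = 0.017 in edgeR's quasi-likelihood test) averaged 4.176 ± 1.89 CPM with Set1 RNAi at ZT12, against 10.27 ± 7.98 CPM in the control (SD, n = 3 each). Without the control library of ZT12 replicate 1 its adjusted p was 0.073. CG31997 (adjusted p = 0.049) averaged 5.029 ± 0.83 CPM with Set1 RNAi at ZT12, against 10.37 ± 14.8 CPM in the control (SD, n = 3 each), and without that library its adjusted p was 0.74. The pseudogene CR33797 (adjusted p = 0.032), at medians of 0.6159 CPM with Set1 RNAi and 0.2604 CPM in the control, had 0.035 without that library and 0.12 without the control library of ZT20 replicate 3 and the Trx RNAi library of ZT12 replicate 1. When only Set1 RNAi and control libraries were fitted, the adjusted p was 0.26 for lncRNA:CR45199 and 0.44 for CG31997 and CR33797.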

How the results depend on the processing

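Depth limits the members below 1 CPM, and the p-values cover the spread between these libraries only. Of 51 changes of named members, 29 kept their call and direction under every alternative that could test them, and of 1117 alternative values 83 lost the call and 0 changed sign. The members' median minus that of all features stayed between -0.23 and -0.14 for Set1 RNAi in 22 alternatives, while it ranged from -0.16 to 0.12 for Trr RNAi and from -0.30 to 0.08 for Trx RNAi. The following counts of members moved by over 1.5 times, and the cause was not tested unless the setting tests fewer members. A filter of 1 CPM in every library gave 2 higher and 3 lower at least 2-fold with Set1 RNAi (7 higher by adjusted p alone), 13 and 6 for Trr RNAi, 13 and 7 for Trx RNAi, 1 lower with Trr than with Trx RNAi and 5 rhythm differences with Set1 RNAi. Members with at most 10 percent of exon bases shared gave 4 higher and 3 lower with Set1 RNAi, and protein-coding members 4 and 2, with 5 lower for Trr RNAi and 9 for Trx RNAi. With no minimum fold change the counts of higher and lower members were 11 and 43 for Set1 RNAi, 38 and 37 for Trr RNAi and 35 and 42 for Trx RNAi. Among all features tested, the same rule called 41.8% higher and 35.7% lower under Trr RNAi. Under Trx RNAi it called 41.9% of them higher and 36.3% of them lower. With 1 RUVs factor 15 were higher with Trr RNAi. With 3 RUVs factors 5 were lower for Trr RNAi and 5 for Trx RNAi, 5 were higher and 1 lower with Trr than with Trx RNAi, 2 were rhythmic with Trx RNAi and 6 rhythms differed with Set1 RNAi. DESeq2's size factors gave 7 lower with Trr RNAi and 6 rhythm differences with Set1 RNAi. Library totals gave 4 lower with Trr RNAi, 4 lower with Trx RNAi and 2 lower with Trr than with Trx RNAi. Fitting only the genotypes compared gave 7 higher with Set1 RNAi by adjusted p alone, 4 lower with Trr than with Trx RNAi, 45 rhythmic with Set1 RNAi, 13 with Trr RNAi, 2 with Trx RNAi and 32 in the control, and 0 rhythm differences with Set1 RNAi. Between Trr and Trx RNAi 1 was lower with all 72 libraries, DESeq2's Wald test, without ZT16 or without the control library of ZT12 replicate 1, and 1 was higher without ZT4. That control library left out also gave 5 rhythm differences with Set1 RNAi. An adjusted p under 0.01 for rhythms gave 23 rhythmic with Set1 RNAi and 1 with Trr RNAi, and 0, 13 and 7 differences with Set1, Trr and Trx RNAi. A weight of at least 0.6 classified 21 members, 17 with a control rhythm, lost in 6, 14 and 15 with Set1, Trr and Trx RNAi. Leaving out each replicate gave 5 to 7 higher and 2 to 7 lower at least 2-fold with Set1 RNAi, 7 to 12 and 26 to 45 by adjusted p alone, 22 to 24 and 7 to 15 with Trr RNAi, 21 to 23 and 13 to 15 with Trx RNAi, and 0 to 2 and 0 to 1 between Trr and Trx RNAi. It gave 21 to 30 rhythmic members with Set1 RNAi, 0 to 2 with Trr RNAi, 0 to 1 with Trx RNAi and 37 to 54 in the control, and 0 to 3, 12 to 27 and 7 to 9 rhythm differences with Set1, Trr and Trx RNAi.

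Knockdown and control samples with the same replicate number mostly did not deviate together (8 of 53 pairs with a correlation over 0.1, from -0.46 to 0.57). The pairs of Set1 RNAi at ZT0 had 0.57, 0.24 and 0.17. Pairs of Trr and Trx RNAi samples were not examined, so whether the numbers pair the samples was not settled. With a replicate block 7 were higher and 5 lower at least 2-fold with Set1 RNAi, and 11 and 43 by adjusted p alone. The block gave 23 and 11 with Trr RNAi, 22 and 15 with Trx RNAi, 2 and 0 between Trr and Trx RNAi, 36, 4, 1 and 62 rhythmic members with Set1, Trr and Trx RNAi and in the control, and 2, 25 and 19 rhythm differences.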
